A study of Mus musculus with 2 samples.

Results

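The cytosines described here were the CpG cytosines that lay in soft-masked sequence of the mouse reference genome GRCm38, written there in lower case because it was recognised as repetitive, and away from promoters. They were autosomal, more than 2 kb from every annotated transcription start site (TSS), outside CpG islands computed from the sequence and outside the recognition sites of the enzymes used. Each had at least 5 reads in both libraries. They numbered 136959 of the 3416032 cytosines that could be compared in the series, or 4.01%, and formed 2.23% of the 6141147 cytosines in the genome that met the same sequence conditions. The data were reduced representation bisulfite sequencing of 2 cultures. Mouse C3H myoblasts were differentiated into myotubes, the multinucleate muscle cells, and transfected with a control small interfering RNA (siCon) or with one that targets H19, a long non-coding RNA (siH19), and DNA was taken 48 h later. There was 1 library per group, so that no value has an error between cultures, and a p-value compares 2 libraries and not 2 conditions. The files hold no RNA, so that neither the knockdown nor the identity of the cells could be checked against its genes.

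Much of a mammalian genome consists of copies of mobile elements. B1 is a short interspersed element of rodents, derived like the human Alu from the RNA of the signal recognition particle, and its copies are common in introns. Such sequences are known as a main target of DNA methylation in somatic cells. Methylated CpG mutates readily to TG, or to CA when the other strand is affected, so that old copies hold few CpGs. Satellite DNA, which is tandemly repeated near centromeres, is another methylated class, and the reference holds far fewer copies of it than the chromosomes do.

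The siCon library held 104999613 reads summed over cytosines, with a median of 12 per covered cytosine, and the siH19 library 106372792 with a median of 13. The cytosines in soft-masked sequence had medians of 14 and 15 reads. They belonged to 99548 CpGs in 59179 soft-masked stretches, called blocks below. Of them 58630 were intragenic, 78248 intergenic, and 81 more lay above the 99.9th percentile of depth, 328 reads summed over both libraries, and were kept apart. The deepest cytosine under that limit had 326 reads and the shallowest above it 330. The label "repeat" rests on the masking alone, since no family annotation of the masked sequence was used. It was checked by aligning the surroundings of each cytosine to the few mobile elements that RefSeq annotates on GRCm38. Of the cytosines under the depth limit, 61774, or 45.1%, aligned to 1 of these, a B1_Mus2 element of the Alu family on chromosome 7, at a median identity of 89.9%. A further 176 aligned to an LTR element, LTRIS4. The other cytosines have no family name here. Of the cytosines under the limit, 60610 had 32-base surroundings that occur once in the genome.

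The B1 copy is shown because its positions order the results that follow. It is given on the plus strand, which is the reverse complement of B1 as it is usually written, and its 2 CpGs, at positions 99 and 131 from its first base, are in capitals.
B1_Mus2, chr7:103823699-103823836: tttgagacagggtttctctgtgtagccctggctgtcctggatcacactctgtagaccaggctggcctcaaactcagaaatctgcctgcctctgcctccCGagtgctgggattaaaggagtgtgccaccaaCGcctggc
Aligned copies carried CpGs mainly at 5 places, positions 82, 99, 118, 122 and 131, with the cytosine of the opposite strand 1 base further. These held 55366 of the aligned cytosines, or 89.6%. Restriction-site cytosines, which were not used, lay in the aligned copies mainly at positions 68, 3 and 135 and, on the opposite strand, 1 base further at positions 69, 4 and 136. Position 69 alone held 24.3% of them, position 4 held 13.0% and position 136 held 9.88%.

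The most frequent 12-base surroundings are shown because identical surroundings stand for copies of 1 repeat. Each is 5 bases, the CpG in capitals and 5 bases, read on the strand of its cytosine. The 12 most frequent held 33263 cytosines, 24.3% of those under the limit, and the remaining ones were spread over most of 35225 different surroundings, 27286 of which were seen once.
B1 position 99: cctccCGagtgc
B1 position 100: gcactCGggagg
B1 position 83: gcaggCGgattt
B1 position 82: aaatcCGcctgc
B1 position 131: caccaCGcccgg
B1 position 132: ccgggCGtggtg
B1 position 119: gcgcaCGccttt
B1 position 119, a variant: gcacaCGccttt
B1 position 118: aaaggCGtgcgc
B1 position 123: ggtggCGcacgc
B1 position 122: gcgtgCGccacc
not aligned to B1: gaatgCGaatcg
All but the last aligned to B1 in at least 96.8% of cases, and 10 of these 11 form 5 pairs of reverse complements. The pair at position 99 was the most frequent, with 4809 and 4676 cytosines. Its sequence occurs 27917 times in the genome with CG in the centre, 23118 times with TG and 71904 times with CA on the strand of cctccCGagtgc, so that 22.7% of these forms keep the CpG. The pair at positions 131 and 132 keeps it in 57.6%. The unassigned gaatgCGaatcg stood apart with 81.4%, 10409 copies against 1312 with TG and 1067 with CA. Its 1867 cytosines averaged 34.4% methylation in siCon and 35.0% in siH19, and 25.3% of them were intragenic. The B1 surroundings ran from 41.2% in siCon for gcactCGggagg to 73.2% for ggtggCGcacgc.

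The first comparison asked whether methylation of this sequence differed between the libraries. Soft-masked cytosines away from promoters were methylated to 47.5% in siCon and 47.9% in siH19 on average, with a standard deviation between cytosines of 35.5 points in siCon, as the plot of levels shows. Intragenic cytosines averaged 55.9% in siCon and 56.4% in siH19. The intergenic ones averaged 41.1% and 41.5%. With every cytosine given the same weight in both libraries (Mantel-Haenszel difference), siH19 was higher by 0.403 points in genes, with a 95% interval from 0.305 to 0.5002, and by 0.361 points between genes, from 0.278 to 0.443. These intervals cover counting error only, reads of 1 fragment count at each of its cytosines, and no test of siH19 against siCon is possible with 1 library each. Unmasked cytosines under the same conditions were higher in siH19 by 0.218 points, from 0.184 to 0.251. Most of the soft-masked cytosines inside genes were intronic, 56159, with levels of 55.7% and 56.2%. The 2471 exonic ones had 61.5% in siCon and 61.1% in siH19, a Mantel-Haenszel difference of -0.304 points with an interval from -0.744 to 0.135.

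**Figure D1:**
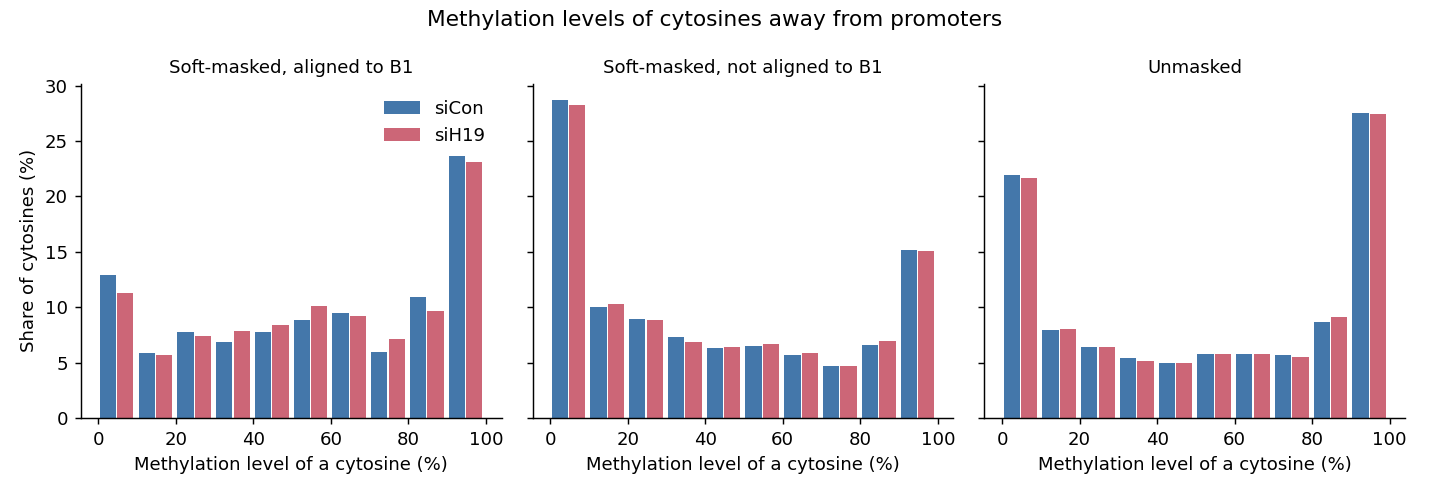
Share of cytosines (%) by methylation level (%, bins of 10 points) in the siCon and siH19 libraries for soft-masked cytosines aligned to B1, soft-masked cytosines not aligned to B1 and unmasked cytosines away from promoters. Of the B1 cytosines 18.8% in siCon and 17% in siH19 were under 20%, against 38.8% and 38.5% of those not aligned to B1.

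Across the 19 autosomes the difference between libraries was above 0 in 18, ranging from -0.011 points on chromosome 13 to 0.861 on chromosome 7, with a median of 0.360. Its interval lay above 0 in 14. Unmasked cytosines were higher in siH19 on all 19 autosomes, by 0.101 to 0.442 points, with the interval above 0 in 13. Chromosome 7, from 0.584 to 1.14 points, and chromosome 17, from 0.431 to 1.02, were the ones where the interval lay above that of the unmasked cytosines of the same chromosome, which reached 0.261 and 0.297. The order of the levels differed more than the libraries did, since the mean level of a chromosome ran from 42.0% on chromosome 14 to 53.9% on chromosome 11 in siCon and from 42.5% to 54.3% on the same chromosomes in siH19.

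**Figure D2:**
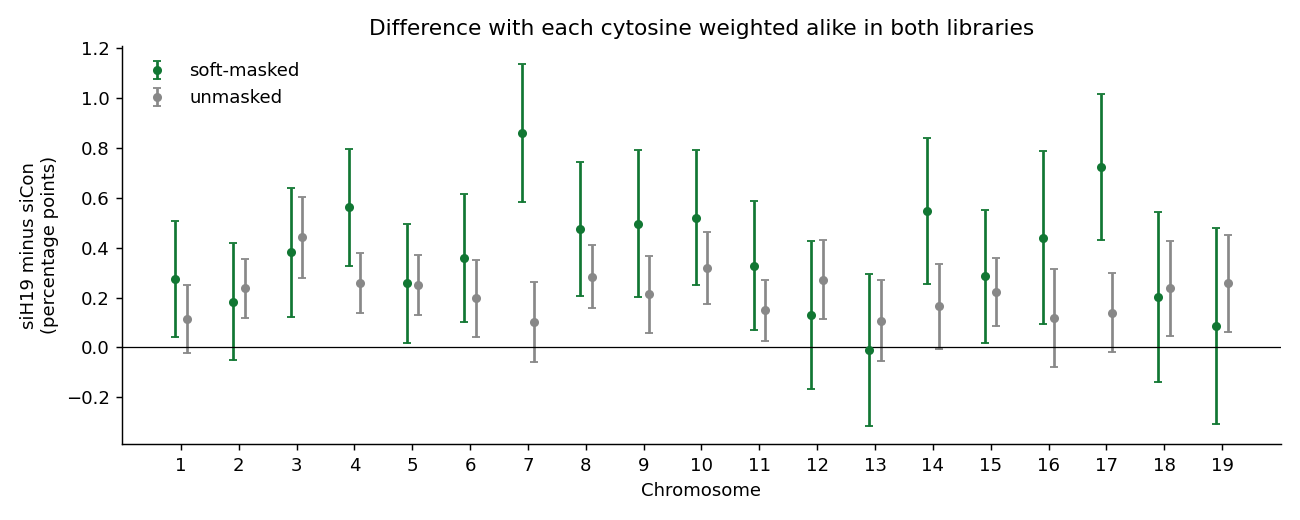
Mantel-Haenszel difference, siH19 minus siCon, in percentage points for each autosome, with 95% intervals of counting error as bars, for soft-masked and for unmasked cytosines away from promoters. Soft-masked cytosines lie between -0.011 and 0.861 points, and 18 of the 19 chromosomes lie above 0. Unmasked cytosines lie above 0 on all 19.

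Weighted by reads, the picture was different. The share of methylated reads over the soft-masked cytosines was 44% in siCon and 47.2% in siH19, a gap of 3.19 points on the same cytosines. The reads were not spread alike. Cytosines aligned to B1 had a median of 10 reads in siCon and 16 in siH19, and took 33.9% of the soft-masked reads in siCon but 46.8% in siH19. Cytosines not aligned to B1 had medians of 17 and 15. B1 cytosines were also the more methylated. Within B1 the read-weighted levels were 55.0% and 55.8%, and outside it 38.3% and 39.6%. These gaps, 0.807 points within B1 and 1.26 outside it, exceeded the Mantel-Haenszel differences of 0.449 and 0.330 points. How much the share of B1 reads adds to the gap of 3.19 points was not tested. Culture and library cannot be told apart here.

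Cytosines aligned to B1 averaged 56.0% in siCon and 56.6% in siH19, and those not aligned 40.4% and 40.8%. This held inside genes, where B1 had 61.0% and 61.5% against 49.0% and 49.4%, and between genes, where it had 49.96% and 50.5% against 36.2% and 36.5%. The Mantel-Haenszel difference between libraries was 0.449 points in B1, with an interval from 0.347 to 0.552, and 0.330 outside it, from 0.251 to 0.410. The intervals overlap. The few cytosines aligned to LTRIS4 were low, at 25.0% in siCon and 25.4% in siH19.

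Levels fell with distance from the nearest TSS in both classes. B1 cytosines 2 to 5 kb from a TSS averaged 60.7% in siCon and 61.1% in siH19, and those over 100 kb away 34.8% and 35.7%. For the others the corresponding levels were 49.0% and 49.2% near, and 30.9% and 31.3% far. Levels also differed with copy number. B1 cytosines whose 32-base surroundings are unique averaged 59.9% and 60.4%, and those with more than 10000 copies 43.3% and 44.1%. Cytosines not aligned to B1 had 43.5% and 43.8% when unique, 36.2% and 36.3% at 2 to 10 copies, and 19.2% and 19.9% above 10000 copies, where they numbered 422. In B1 the difference between libraries was 0.417 points, from 0.261 to 0.574, for the unique ones and 0.741, from 0.436 to 1.05, for the most frequent ones. Among copies of higher identity to the annotated B1 element the level was lower, at 52.6% and 53.4% for 90 to 95% identity against 61.9% and 61.8% for 80 to 85%. The number of CpGs in the surrounding 200 bases went with the level at its low end, since cytosines with 1 or 2 averaged 37.0% and 37.5%, and those with 5 or 6 averaged 52.6% and 52.8%. With 9 or more the levels were 47.6% and 48.6%, and the difference between libraries was 1.00 point, from 0.727 to 1.28. Blocks of at least 1000 bases had 37.2% and 37.7%, and those of 100 to 199 bases 53.3% and 53.7%. Levels by class are a description, since these properties were not separated from each other.

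**Figure D3:**
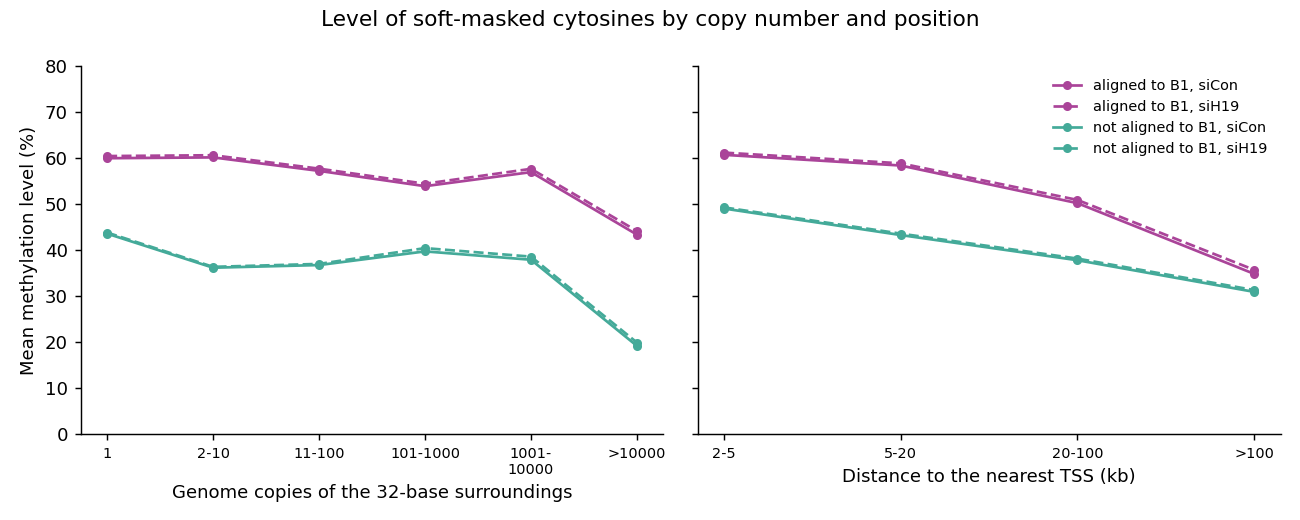
Mean methylation level (%) of soft-masked cytosines by the number of genome copies of their 32-base surroundings (left) and by distance to the nearest TSS in kb (right), for cytosines aligned or not aligned to B1 (colours) in siCon (solid) and siH19 (dashed). B1 cytosines fall from 60.7% to 34.8% in siCon over the distance classes, and the libraries lie close together throughout.

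Soft-masked cytosines were next compared with unmasked ones under otherwise equal conditions, 336296 in number, within each library. The unmasked ones were not aligned to any element, so that they are not known to be free of repeats. The mean level of soft-masked cytosines was the lower one in both libraries. Inside genes it was 55.9% against 58.3% in siCon and 56.4% against 58.5% in siH19, and between genes 41.1% against 43.8% and 41.5% against 44%. Summed over reads, the soft-masked share between genes was lower by 2.36 points in siCon (Fisher's exact test on summed reads, interval from -2.45 to -2.26) and differed by -0.611 points in siH19, from -0.704 to -0.517, p = 1.21e-37. Inside genes, Fisher's exact test on the summed reads gave -1.23 points in siCon, from -1.34 to -1.12, p = 9.63e-109, but 0.560 points in siH19, from 0.460 to 0.661, p = 6.85e-28. The direction in siH19 turns with the weighting, from 0.560 with summed reads to -2.08 with equal weight per cytosine. These tests treat reads as independent, so that their p-values are too small. The 2 kinds of soft-masked cytosine lay on either side of the unmasked mean, 52.5% in siCon and 52.7% in siH19, with B1 above and the rest below. The mean of soft-masked cytosines was below that of unmasked ones on 18 of 19 autosomes in each library.

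Positions of the B1 element differed from each other by far more than the libraries. The cytosine at position 123 was the most methylated, at 72.8% in siCon and 73.3% in siH19, followed by position 122 of the same CpG at 67.8% and 68.2%. Positions 118 and 119 had 58.1% and 59.5% in siCon, and 58.6% and 60.2% in siH19. Positions 131 and 132 had 53.4% and 57.9% in siCon, and 54.0% and 58.9% in siH19. Positions 82 and 83 were lower, with 45.1% and 49.2% in siCon, and 46.1% and 49.5% in siH19. The CpG at position 99 was the only one of the 5 with the lower level on the opposite strand, 49.8% against 43.4% in siCon and 50.9% against 43.3% in siH19. Between copies the levels at 1 position varied with a standard deviation of 28.7 to 34.4 points in siCon. The Mantel-Haenszel differences between libraries lay between -0.064 points at position 100 and 0.958 at position 132.

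Position 99 stood out in another respect. The strands of 1 CpG within a library had a Fisher p under 0.05 at 17.5% of its CpGs in siCon and 21.8% in siH19. At the other 4 places this share was 6.27 to 8.03% in siCon and 9.09 to 11.2% in siH19. Between libraries the same test gave 8.68% at position 99 and 2.34 to 2.89% at the others. Position 99 was also deeper, with medians of 12 reads in siCon and 19 in siH19 against 9 to 10 and 15 to 16. The part of depth in these shares was not tested. Both the methylated and the total reads were even numbers at 60.9% of its cytosines in siCon and 59.3% in siH19, against 26.6 to 28.8% and 27.0 to 28.3% at the other places. Of its cytosines with even counts in both libraries 7.58% were called different between libraries by the rule given below, and of its others 5.93%. The part of the even counts in the result was not tested. Position 99 was singled out after its values were seen.

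**Figure D4:**
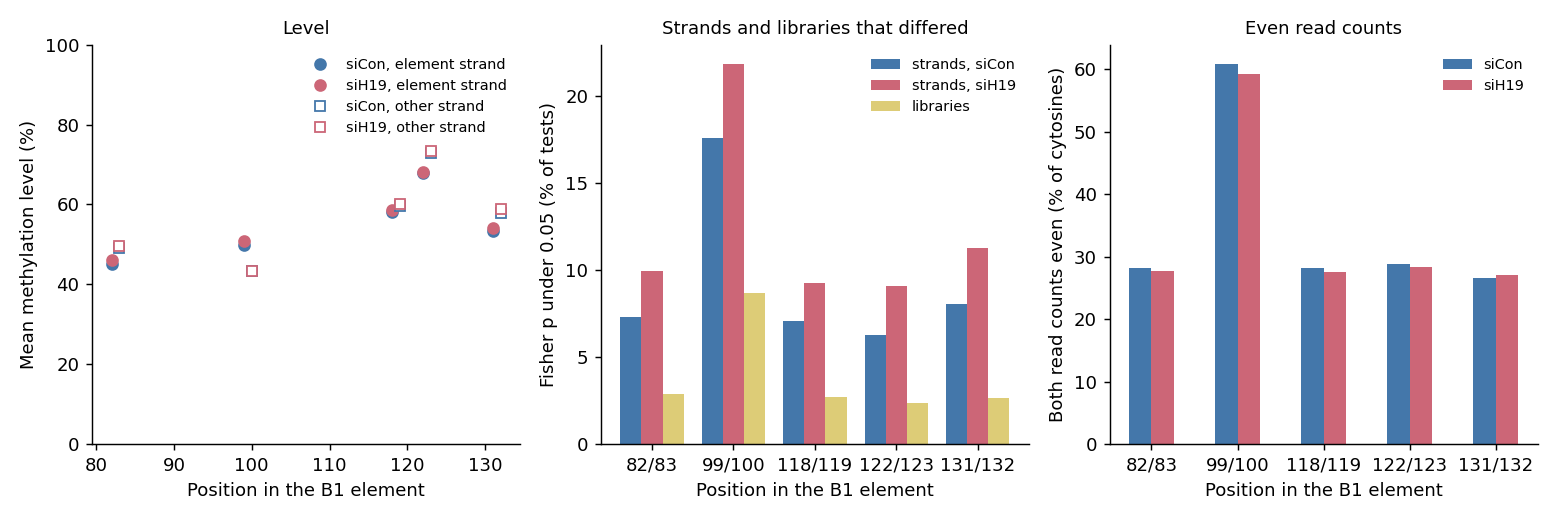
Cytosines of aligned B1 copies by position in the element: mean level (%) on the element's strand (filled) and the other strand (open) in siCon and siH19, share of Fisher tests with p under 0.05 between strands within a library and between libraries (%), and share of cytosines with even methylated and total read counts in each library (%). Position 99 has the highest bars in the middle and right panels, 17.5% and 21.8% between strands, and 60.9% and 59.3% even.

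Single cytosines were then tested between the libraries. A cytosine was called at a Fisher p under 0.05 with at least 33 points of difference. Of the soft-masked cytosines, 1522 were called higher in siH19, or 1.11%, and 1321 lower, or 0.965%. Over all compared cytosines 0.786% were called higher and 0.631% lower, and over those outside restriction sites 0.519% and 0.467%. Unmasked cytosines under the same conditions had 0.635% and 0.580%. The groups differ in depth and in its split between libraries. Soft-masked cytosines had 1.14 times as many reads in siH19 as in siCon, and unmasked ones 0.907 times. At 20 to 39 summed reads the shares were 1.47% and 1.25% for soft-masked and 0.869% and 0.809% for unmasked cytosines. The part of depth in these shares was not tested. Called cytosines were more frequent in both directions, and 53.5% of them were higher in siH19. With Benjamini-Hochberg adjustment over the whole table, 71 soft-masked cytosines, or 0.0519%, had an adjusted p under 0.05, 40 higher and 31 lower. The share was 0.0378% of unmasked cytosines under the same conditions, 0.0391% of all cytosines outside restriction sites, and 0.236% of all compared cytosines, restriction sites included.

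Position 99 of B1 held many of the calls. Its cytosines on both strands were 8.63% of the soft-masked ones but 27.5% of the called ones, 376 higher and 407 lower, and 29 of the 71 with an adjusted p under 0.05. The share called rose with the number of copies, from 1.77% for unique surroundings to 8.35% for those with more than 10000 copies, while at other B1 positions it was 1.72% and 2.35%. Without position 99 the shares called were 0.916% higher and 0.731% lower. Where the opposite strand of a called cytosine was also compared, it moved the same way in 636 of 1308 cases, 48.6% with an exact 95% binomial interval from 45.9 to 51.4%. For unmasked cytosines this was 49.0%. An opposite strand without any difference counted as not moving the same way, so that an even split is not the reference. CpGs called on both strands entered once per strand, while the interval takes cases as independent. At 18 CpGs of 37330 both strands were called in the same direction. Within a library, strands had a Fisher p under 0.05 at 7.58% of soft-masked CpGs in siCon and 8.67% in siH19, while libraries did at 3.65% on the plus and 3.39% on the minus strand. Strands within 1 library thus passed the test more often than libraries did. Across the 77583 cytosines with no fewer than 10 reads per library the levels had Pearson's r = 0.934 and Spearman's coefficient = 0.925 between libraries, where neighbouring cytosines share reads. The corresponding values for unmasked cytosines were 0.956 and 0.937.

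Of the CpGs whose strands each reached 10 reads in both libraries and moved alike, 145 held a cytosine called higher and 127 one called lower. How many CpGs passed this filter was not counted, nor was the share for unmasked CpGs, so that these counts give no rate. The 3 lowest p-values in each direction are given with 42 reference bases, all CpGs in capitals and the tested one in the middle.
chr10:114055650-114055691, higher: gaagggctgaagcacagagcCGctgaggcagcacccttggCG
chr6:143196574-143196615, higher: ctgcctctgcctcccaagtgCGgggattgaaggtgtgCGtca
chr1:152678994-152679035, higher: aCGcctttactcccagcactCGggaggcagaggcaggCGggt
chr2:101889371-101889412, lower: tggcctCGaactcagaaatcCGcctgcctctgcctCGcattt
chr5:74463603-74463644, lower: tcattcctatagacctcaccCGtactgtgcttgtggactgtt
chr1:155988646-155988687, lower: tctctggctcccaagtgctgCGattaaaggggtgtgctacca
The intergenic CpG on chromosome 10 at 114055670 had 0% of 49 reads on the plus strand in siCon and 34.7% of 72 in siH19, with an adjusted p of 0.00110 by Fisher's exact test, but 4.76% and 13.6% on the minus strand. The CpG at 143196594 in an intron of Etnk1 had 11.1% of 18 reads and 75.4% of 57 on the plus strand (Fisher's exact test, adjusted p = 0.00299), and 60% of 10 and 100% of 25 on the minus strand. It was called on both strands. The next CpGs on either side had fewer reads. On the plus strand 143196571 and 143196611 had 9 each in siCon, and 28 and 29 in siH19. On the minus strand 143196572 and 143196612 had 5 each in siCon and 13 each in siH19. Further along, 143196626 on the plus strand had 42 and 41. Whether reads were counted more than once was not tested, and the p-values take reads as independent. In an intron of Rgl1, which encodes an exchange factor for Ral GTPases, the minus strand at 152679014 had 66.7% of 24 reads and 100% of 78 (Fisher's exact test, adjusted p = 0.00493), and the plus strand 93.3% and 96.8%. On the minus strand its surroundings are cctccCGagtgc, those of B1 position 99.

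Of the CpGs that were lower in siH19, the one at 101889391 in an intron of Commd9 had 100% of 17 reads and 21.4% of 28 on the plus strand (Fisher's exact test, adjusted p = 0.000526), and 55.6% and 37.5% on the minus strand. The CpG at 74463623 in an intron of Scfd2 had 100% of 28 and 48.8% of 43 on the plus strand (Fisher's exact test, adjusted p = 0.00210), and 83.3% and 53.3% on the minus strand. It lies in unique sequence that did not align to B1. The intergenic CpG at 155988666 on chromosome 1 had 54.2% of 48 and 22.9% of 70 on the plus strand, and 75% of 24 and 20% of 60 on the minus strand, where the adjusted p was 0.00713 by Fisher's exact test.

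Blocks of soft-masked sequence were tested over their cytosines together (Cochran-Mantel-Haenszel chi-square test, Benjamini-Hochberg adjustment over all 16494 blocks of the genome with at least 5 cytosines). The cytosines of a block share reads, so that these p-values are too small. Of the 4179 blocks made up only of cytosines that met the rule, 25 were called higher in siH19, at an adjusted p under 0.05 with at least 10 points, or 0.598%, and 14 lower, or 0.335%. Over all blocks 0.685% were called higher and 0.297% lower, shares close to those of the blocks that met the rule. The median difference of these blocks was 0.127 points, and 389 were higher by at least 10 points while 334 were lower by as much. With the deepest cytosine of each block alone, 5 were called higher and 3 lower. The plot of blocks shows the called ones among the rest.

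**Figure D5:**
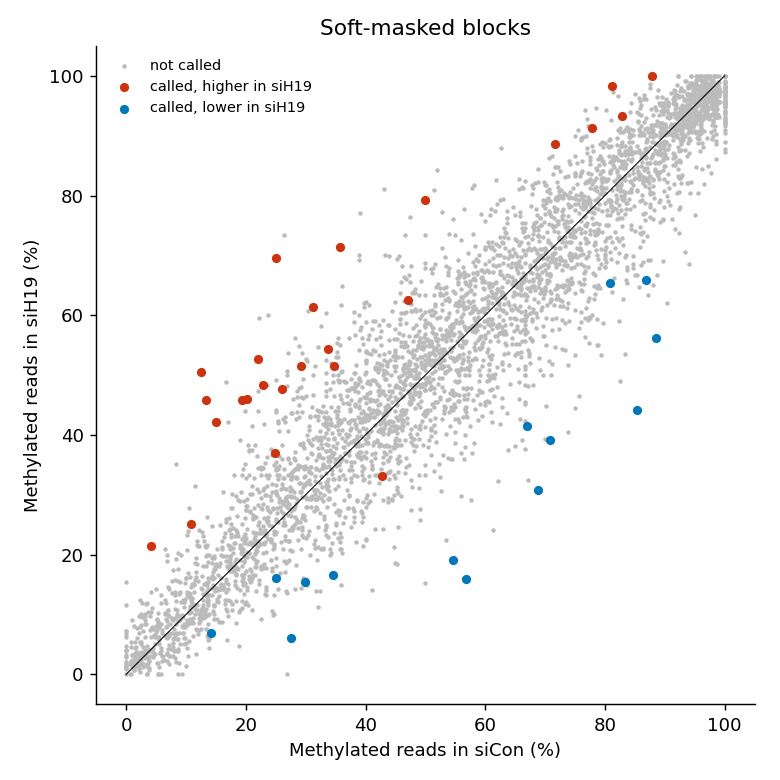
Methylated reads (%) in siCon and siH19 for the 4179 soft-masked blocks away from promoters, 1 point per block, with equal values on the diagonal. The 25 blocks called higher in siH19 (red) and the 14 called lower (blue) lie off the diagonal among uncalled blocks, and 1 block called higher lies below it, since a call weights cytosines and this plot sums reads.

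Of the called blocks, 20 higher and 8 lower ones had at least 50 reads per library and moved alike on both strands or were covered on 1 strand, and some of these are described. The largest rise among them was in an intron of Myo9a, which encodes an unconventional myosin. It and 2 of the blocks that fell are shown in full, with CpGs in capitals. The first is a B1 copy in the orientation printed above.
chr9:59770346-59770520, Myo9a: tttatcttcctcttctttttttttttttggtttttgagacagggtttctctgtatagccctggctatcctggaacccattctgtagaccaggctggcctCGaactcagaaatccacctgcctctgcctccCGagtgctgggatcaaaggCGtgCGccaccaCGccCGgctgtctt
chr1:102111418-102111525, intergenic: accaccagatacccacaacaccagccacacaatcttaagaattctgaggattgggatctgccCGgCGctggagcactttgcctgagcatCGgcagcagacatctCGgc
chr8:85982851-85983030, Phkb: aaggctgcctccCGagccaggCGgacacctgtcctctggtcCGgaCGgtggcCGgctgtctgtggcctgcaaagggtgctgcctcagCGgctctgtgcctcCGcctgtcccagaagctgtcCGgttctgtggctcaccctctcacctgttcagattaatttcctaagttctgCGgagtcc
Over its 8 cytosines the Myo9a block had 31.2% of 64 reads methylated in siCon and 61.4% of 88 in siH19, a Mantel-Haenszel difference of 34.7 points (chi-square adjusted p = 0.0160). All 8 cytosines were higher in siH19. On the plus strand the levels ran from 14.3 to 28.6% in siCon and from 45.5 to 58.3% in siH19, and on the minus strand from 28.6 to 71.4% and from 66.7 to 100%. No cytosine had more than 22 reads in either library, and the deepest one alone, at 20% of 10 reads and 45.5% of 22, had p = 0.248 by Fisher's exact test.

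The other 4 of the 5 largest rises were in intergenic blocks. In the order given here, 6 of 6, 6 of 6, 7 of 8 and 0 of 5 of their cytosines aligned to B1. The one at chr8:116755980-116756182 had 13.3% of 60 reads and 45.8% of 83 (32.3 points, chi-square adjusted p = 0.0147). Its neighbour in rank, at chr16:27958057-27958408, had 23.0% of 61 and 48.3% of 178 (30.3 points, chi-square adjusted p = 0.0186). At chr8:109355859-109356076 the shares were 22% of 50 and 52.6% of 114 (27.8 points, chi-square adjusted p = 0.0379), and at chr5:54229846-54230371 they were 15.1% of 53 and 42.1% of 221 (27.3 points, chi-square adjusted p = 0.0382). In each the reads in siH19 outnumbered those in siCon. The deepest cytosine alone had p = 0.296, 0.161, 0.167 and 0.225 by Fisher's exact test, in the same order. At chr8:116755980-116756182 the methylated and total reads were even numbers at most cytosines, and the part of this in the result was not tested.

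Of the lower blocks, 4 are described. The intergenic block on chromosome 1 fell from 27.5% of 69 reads to 6.06% of 132 (-19.4 points, chi-square adjusted p = 0.0280). Its CpGs differed among themselves, since the minus strand at 102111484 and the plus strand at 102111522 held no methylated read in either library, and the minus strand at 102111508 had 61.5% of 13 in siCon and 25% of 16 in siH19. The plus strand at 102111522 was the deepest cytosine taken alone, with 10 and 27 reads. At 102111507, with as many reads, the levels were 40% and 7.41%. The block in an intron of Phkb, which encodes a regulatory subunit of the kinase that switches on glycogen breakdown in muscle, had 80.9% of 115 reads in siCon and 65.3% of 147 in siH19 (-17.1 points, chi-square adjusted p = 0.0444). It was covered on the plus strand alone, and the cytosine at 85982938 had the largest difference, with 52% of 25 and 6.67% of 30 reads, while the cytosine at 85982872 had 100% in both libraries. The remaining ones were intergenic, at chr16:56968813-56969375 with 34.6% and 16.7%, and at chr4:69309951-69315105 with 14.2% and 6.96%. The deepest cytosine alone had p = 0.224, 0.00699 and 0.0192 by Fisher's exact test in the Phkb, chromosome 16 and chromosome 4 blocks. Fisher's exact test on summed reads gave them an adjusted p of 0.122, 0.0156 and 0.409. It gave 0.00627 for the chromosome 1 block. In the chromosome 4 block, 69313388 to 69313401 had at most 5.88% in siCon and 0% in siH19.

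Blocks were also grouped by level. Under 20% in both were 500 blocks, or 12%, and over 80% in both were 899, or 21.5%, while 170 crossed the 20% line between the libraries. The low blocks were intragenic in 19.2% and held B1 in 26.6%, and the high ones in 67.1% and 83.6%. The low blocks were a median of 24922.5 bases from a TSS and 11024.5 from an island, the high ones 8839 and 4270. The 5 low blocks with the most cytosines were all intergenic, with no cytosine aligned to B1. The largest, on chromosome 3 from 91574735 to 91575131, had 18 cytosines with 6.72% of 818 reads in siCon and 7.88% of 457 in siH19. The second is printed because it holds 11 CpGs and its share of methylated reads was under 20% in both libraries.
chr2:87326239-87326497, low in both: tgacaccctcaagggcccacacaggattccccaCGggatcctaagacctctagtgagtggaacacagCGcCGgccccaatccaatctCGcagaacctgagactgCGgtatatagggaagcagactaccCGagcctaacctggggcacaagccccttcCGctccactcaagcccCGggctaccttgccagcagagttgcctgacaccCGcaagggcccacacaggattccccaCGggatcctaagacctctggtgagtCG
Its 16 cytosines had 17.6% of 357 reads in siCon and 17.2% of 366 in siH19, but single ones reached 50% in siCon and 60% in siH19. The remaining 3 blocks had 15.1% and 14.4%, 13.1% and 15.1%, and 7.24% and 9.74%. As blocks, none of the 5 had a p under 0.05 by the chi-square test, the lowest being 0.375. Single cytosines met the rule for a call. On the plus strand 87326326 had 25% of 24 and 60% of 20 reads (Fisher's exact test, p = 0.0309), and 96334076 in the last block 0% of 16 and 36.4% of 11 (Fisher's exact test, p = 0.0188).

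Genes were tested by the soft-masked cytosines inside them. Of 4437 genes with at least 5, 6 were called higher in siH19 and 8 lower at an adjusted p under 0.05 with at least 10 points, or 0.135% and 0.180%. Neighbouring cytosines of a gene share reads, so that these p-values, like those of blocks, are too small. The same test on the unmasked cytosines of genes called 0.011% higher and 0% lower. With the deepest cytosine of each gene alone, 9 of the 4437 genes were called, and 12 of 9063 by unmasked cytosines. A gene had a median of 8 soft-masked or 12 unmasked cytosines, and the part of this in the shares was not tested. Among those with at least 10 cytosines and both strands moving alike, 3 genes were higher and 1 lower. Etnk1 encodes ethanolamine kinase, which starts the synthesis of phosphatidylethanolamine. Its 18 intronic cytosines, 15 of them in B1, averaged 73.9% in siCon and 82.5% in siH19, a Mantel-Haenszel difference of 16.0 points (chi-square adjusted p = 0.00173). Among the largest differences were those at the CpG at 143196594 given above and at a second B1 copy. In the latter, at 143213512 and 143213516 the plus strand had 52.5% and 62.5% of 40 reads in siCon and 80% and 84.8% in siH19, while the minus strand had 87.5% and 50% of 8 and 73.3% and 53.3% of 30. Of the 18 cytosines 9 were higher, 6 lower and 3 equal.

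Sort1 encodes sortilin, a receptor that sorts proteins between the Golgi and endosomes. Its 11 cytosines, 2 of them exonic, averaged 47.8% and 61.4%, a difference of 16.0 points (chi-square adjusted p = 0.0156), and 9 were higher in siH19. The deepest of them, at 108323334 on the plus strand, had 0% of 44 reads in siCon and 25% of 104 in siH19 (Fisher's exact test, adjusted p over all cytosines = 0.0353). The minus strand of the same CpG had 13.8% of 29 and 22.2% of 45. The adjacent CpG at 108323330 had 22 and 53 reads on the plus strand, and whether reads were counted more than once was not tested. Dym, which encodes a protein of the Golgi, had 56.9% and 68.1% over 23 cytosines, a difference of 12.9 points (chi-square adjusted p = 0.0464). Without its 6 cytosines at B1 position 99 the difference was 9.81 points and the chi-square adjusted p 0.403, and with at least 10 reads per library they were 17.6 points over 9 cytosines and 0.0668. The deepest cytosine of Dym alone had p = 0.320 by Fisher's exact test. Pde4d, which encodes a phosphodiesterase that degrades cAMP, was the gene that fell, from 77% to 64.8% over 48 cytosines in 22 blocks (-10.7 points, chi-square adjusted p = 0.00266). Of its cytosines 29 were lower, 9 higher and 10 equal. When restriction-site cytosines were kept, Pde4d had -1.70 points over 130 cytosines with a chi-square adjusted p of 0.731, and Etnk1 8.42 points over 32 with 0.0404. With at least 10 reads per library Pde4d had -9.36 points over 20 cytosines with an adjusted p of 0.124. Without B1 positions 99 and 100 it had -9.36 points over 43, under the size needed for a call, with a chi-square adjusted p of 0.0283. The deepest cytosine alone had p = 0.103 in Pde4d and 0.0170 in Etnk1 by Fisher's exact test.

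The genes with the most soft-masked cytosines were mostly long ones, and differed widely in level. Cntnap2, which encodes a neuronal cell adhesion protein, was the lowest, at 17.8% in siCon and 19.1% in siH19 over 78 cytosines. Agbl4, an enzyme that removes glutamates from tubulin, had 27.2% and 28.8% over 71. Lsamp and Dlg2, an adhesion protein and a scaffold protein of synapses, had 28.6% and 30.1%, and 35.6% and 36.6%, over 70 each. Nkain2 had 29.1% and 30.1% over 71. Fgfr2, a receptor for fibroblast growth factors whose annotated span is 2961 kb here, had 48.0% and 54.2% over 124 cytosines, a difference of 6.93 points with 71 higher, 30 lower and 23 equal (chi-square adjusted p = 0.00133), which was under the 10 points needed for a call. With restriction-site cytosines kept it had 2.94 points over 356 cytosines. The test of Fgfr2 took every soft-masked cytosine in that span, in 59 blocks, also those that another gene may cover. C130026I21Rik had 53.7% and 52.9% over 86, and the predicted gene Gm20388, which spans 4435 kb and overlaps many others, 64.1% and 66.2% over 317. Apart from Fgfr2, none of these 8 had an adjusted p under 0.05, and the next lowest was 0.506.

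The 81 cytosines above the depth limit formed 48 loci when those within 5 kb were joined, 29 of them a single cytosine. Their summed depth ran from 330 to 7438 reads with a median of 477. Of these cytosines 29 were intragenic and 52 intergenic, 6 aligned to B1, 23 had surroundings with more than 1000 copies and 19 had unique ones. The loci with the most reads are shown because several hold the same sequence.
chr14:19415734-19415793: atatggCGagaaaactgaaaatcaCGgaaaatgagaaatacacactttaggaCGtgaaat
chr9:35305242-35305534: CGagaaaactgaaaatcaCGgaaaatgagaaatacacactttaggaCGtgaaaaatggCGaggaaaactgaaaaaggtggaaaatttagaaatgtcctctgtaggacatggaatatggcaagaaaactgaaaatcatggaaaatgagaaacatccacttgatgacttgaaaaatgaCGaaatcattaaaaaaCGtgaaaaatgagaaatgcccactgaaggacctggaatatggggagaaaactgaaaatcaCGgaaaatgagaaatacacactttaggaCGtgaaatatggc
chr16:80293464-80293524: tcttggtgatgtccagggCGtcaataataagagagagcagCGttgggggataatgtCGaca
chr6:82103231-82103316: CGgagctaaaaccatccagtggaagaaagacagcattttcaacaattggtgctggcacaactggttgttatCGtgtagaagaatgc
The locus on chromosome 14 and that on chromosome 9 share a run of 53 identical bases, and the fifth locus, on chromosome 9 from 3007362 to 3007596, shares 52 with the former on the opposite strand. The run reads like the monomer of mouse major satellite, as far as textbook sequence tells, and it was aligned to no satellite reference here. The locus on chromosome 16 and that on chromosome 6 share no more than 8 bases with any of these or with each other.

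On chromosome 14, 6 cytosines of 3 CpGs ran from 77.1 to 96.5% in siCon and from 78.2 to 95.9% in siH19, at 3724 to 7438 summed reads each, and the differences from -2.89 to 1.06 points. The lincRNA gene Gm33838 holds the 9 cytosines of the second locus, with 68.9 to 96.7% and 66.3 to 96.3%. Its cytosine at 35305522 had 85.2% of 667 reads in siCon and 91.4% of 698 in siH19, with p = 0.000372 by Fisher's exact test and an adjusted p of 0.102. In the lincRNA gene Gm26870 the 3 cytosines of the fifth locus had 60.6 to 82.2% and 67.9 to 85.8%. The pair on chromosome 16 was at 38.5% and 46.8% in siCon and 36.7% and 46.1% in siH19, and the 3 on chromosome 6 had 3.08, 47.3 and 47.5% in siCon against 3.07, 46.1 and 47.5% in siH19. Over all 81 the means were 40.7% and 40.9%, and the Mantel-Haenszel difference was 0.008 points, with an interval from -0.529 to 0.545. None was called, since the largest changes were 10.5 points up and 8.68 down, 6 had an unadjusted p under 0.05 and 0 an adjusted one.

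Depth differed too. The locus on chromosome 14 had 1.45 times as many reads in siH19 as in siCon, the chromosome 16 pair 0.360 times and the fifth locus 0.455 times. Read-weighted over the deep set, methylation was 57.4% in siCon and 64.6% in siH19, a gap that equal weight per cytosine does not show. The pile-up at Gm10800 on chromosome 2 had 102 compared cytosines in its surroundings and 0 that met the rule.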

How the data were processed

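Reduced representation bisulfite libraries (MspI and TaqαI) of 1 siCon and 1 siH19 culture were used. Bismark was run by the service provider in non-directional mode, and filled-in nucleotides were trimmed. The submitters' processing notes name mm10 and bcl2fastq 1.8.4. Duplicate removal and the masking program were not given in the sources used here. The deposited files give methylated and total reads per cytosine and strand as text, another unit than a plain number, and the deposited score followed from these in 100% of entries. Start sites were those of GENCODE on GRCm38, and islands the union of 200-base windows whose GC share reached 0.5 and whose ratio of observed to expected CpGs reached 0.6. Sequences with flanks of 150 bases were aligned to RefSeq elements with blastn 2.17.0 (E up to 1e-10). Fisher's exact, Mantel-Haenszel and Cochran-Mantel-Haenszel chi-square tests were run in Python 3.11.15 with two-sided p-values and checked on simulated data. Intervals cover counting error only. Named were, in each direction, the 5 called blocks (at least 50 reads per library) and up to 8 called genes (at least 10 cytosines) with the largest differences and the 3 CpGs with the lowest p, the same direction on both strands being required, and also the 8 genes and 12 surroundings with the most cytosines, the 5 blocks under 20% with the most cytosines and the 5 deepest loci. Of 4685 blocks with at least 5 cytosines, 506 also held cytosines outside the rule and were left out. Of the blocks that this rule names, 1, which had the largest fall, is not reported here. The alternatives tried are given in the closing section. Members, lists and thresholds were chosen with earlier results of these data known.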

Additional observations from a re-analysis of the deposited data

How the results depend on the processing

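No paired analysis was possible because each group had 1 library, and for the same reason no replicate could be left out. The difference between libraries (siH19 minus siCon) was 0.678 points inside genes and 0.646 between genes with restriction-site cytosines kept, 3.05 and 2.52 weighted by reads, and 0.246 between genes for surroundings that occur once. The difference from unmasked cytosines inside genes in siH19 was reversed to -2.08 points with equal weight per cytosine. Cytosines called higher and lower numbered 40 and 31 by adjusted p, 777 and 684 of 77583 with at least 10 reads, 485 and 402 of 60610 for surroundings that occur once, and 974 and 802 after thinning to equal depth, with 1006 of 99548 CpGs higher when strands were summed. Blocks called higher and lower, 25 and 14 of 4179 in the report, numbered 45 and 39 by a Fisher test of their summed reads, 5 and 3 by the deepest cytosine, 11 and 9 of 1928 with at least 10 reads, 66 and 37 of 20906 with restriction sites kept, and 15 and 8 of 3195 without B1 positions 99 and 100, an alternative chosen after seeing the data. Genes numbered 188 higher and 141 lower on summed reads, and those lower 4 by the deepest cytosine, 5 of 2296 with at least 10 reads, 4 of 8882 with restriction sites kept and 5 of 3967 without positions 99 and 100. The cause was not tested beyond the fewer or more cytosines each setting leaves. For 49 other pairs of result and setting the value stayed within the limits set for a change, but these limits allowed large shifts. The differences from unmasked cytosines for surroundings that occur once were among these pairs, and kept their sign but not their size. Inside genes they were -0.445 points in siCon and 1.90 in siH19, against -1.23 and 0.560 in the report. Between genes they were -1.87 and -0.206 points, against -2.36 and -0.611. At a median of 14 and 15 reads, small differences at 1 cytosine were not detectable.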
